A study of Arabidopsis thaliana with 6 samples.

Results

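ELC, VPS2.1, VPS60.1 and VPS46.2 are 4 Arabidopsis thaliana genes of the ESCRT machinery, the endosomal sorting complexes required for transport. They were selected on their array signal, which was higher in seedlings given chitooctaose than in seedlings given water, and they are 4 of 13355 genes that had a probe set assigned to exactly 1 gene. On an Affymetrix array a transcript is read by several short probes, together called a probe set, and each of the 4 genes had 1 such probe set. Whole seedlings of the ecotype Col 0 were 14 days old and had been grown in shaken liquid medium under constant light. The chitooctaose group, 3 arrays, received 20 µl of the compound in 10 ml of medium for a final concentration of 1 µM, and the water group, 3 arrays, received 20 µl of water. Seedlings were collected 30 min later, although the series text gives 3 min. The description field of the chitooctaose arrays speaks of water; titles and protocols, which name chitooctaose, were followed here. Chitooctaose is a fragment of chitin, the polymer of fungal cell walls, which plants perceive through LysM receptor kinases.

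ESCRT complexes act in sequence on the endosome membrane. ESCRT-I binds cargo proteins tagged with ubiquitin, ESCRT-II links it to ESCRT-III, and ESCRT-III filaments bud the membrane inward, so that cargo ends in the vesicles of a multivesicular body and is degraded in the vacuole. The ATPase SKD1, the plant VPS4, then takes the filaments apart, with LIP5 as its cofactor. In plants this route carries plasma membrane proteins such as auxin carriers and immune receptors away from the surface. ELC is an ESCRT-I subunit that binds ubiquitin. VPS2.1 is a core ESCRT-III subunit, and its yeast counterpart recruits the ATPase. VPS60.1 and VPS46.2 are ESCRT-III-related proteins, of which the first binds LIP5 and the second is one of a pair of CHMP1 proteins needed for the sorting of auxin carriers.

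The rises differed in size among the 4 genes. VPS2.1 and VPS60.1 were about doubled, at 2.16-fold and 1.95-fold, while ELC and VPS46.2 were higher by 1.31-fold and 1.24-fold. Since the genes were selected for a higher signal in this comparison, these values describe them and are not tested here. The signal is the deposited intensity on a linear scale, and fold changes are ratios from mean log2 intensities, with values under a floor of 16 set to 16. Each of the 4 genes was above this floor on all 6 arrays.

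Of the ESCRT-I genes, ELC (AT3G12400) stood at 618, 639 and 565.5 in the chitooctaose arrays, against 461, 479.6 and 455 in the water arrays. The groups did not overlap, and the lowest chitooctaose array was 1.18-fold above the highest water array. Mean intensity was 608 ± 38.0 in chitooctaose and 465 ± 12.9 in water (SD, n = 3 each), a log2 change of 0.38 (SE 0.06, 95% interval 0.23 to 0.54). Replicate 3 was the lowest array of both groups for this gene, and replicate 2 the highest of both.

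Of the core ESCRT-III genes, VPS2.1 (AT2G06530) stood at 1147, 1167 and 1319 in the chitooctaose arrays, against 588, 468 and 636 in the water arrays. Every chitooctaose array was at least 1.80-fold above every water array. The means were 1211 ± 94.0 in chitooctaose and 564 ± 86.6 in water (SD, n = 3 each), a log2 change of 1.11 (SE 0.13, 95% interval 0.80 to 1.43). Relative to the mean, VPS2.1 varied most of the 4 genes among water arrays, with a coefficient of variation of 15.4%, because of the low value in replicate 2. That array had the lowest median of all 6 arrays (155.7) and was the lowest water array for 15 of the 24 measured genes of the ESCRT lists, and for 47.5% of all genes. Without water replicate 2 the log2 change of VPS2.1 was 0.98.

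VPS60.1 (AT3G10640) stood at 670.4, 547 and 607 in the chitooctaose arrays, against 316, 303 and 313 in the water arrays. The water arrays lay close together, the chitooctaose arrays spread more widely (a coefficient of variation of 10.1%), and the groups were separated by a factor of 1.73. The means were 608 ± 61.7 in chitooctaose and 311 ± 6.53 in water (SD, n = 3 each), a log2 change of 0.96 (SE 0.08, 95% interval 0.76 to 1.17).

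VPS46.2 (AT1G73030) stood at 657.1, 658.8 and 658.7 in the chitooctaose arrays, against 561, 507 and 527 in the water arrays. The groups were separated by a factor of 1.17. The means were 658 ± 0.959 in chitooctaose and 532 ± 27.2 in water (SD, n = 3 each), a log2 change of 0.31 (SE 0.05, 95% interval 0.18 to 0.44). The 3 chitooctaose values were almost the same: of 14048 probe sets with a mean chitooctaose intensity over 100, only 3, VPS46.2 among them, had a coefficient of variation of 0.146% or less. The SE comes from a model that pools the spread over both groups and moderates it across probe sets, so it does not rest on this small spread alone.

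**Figure D1:**
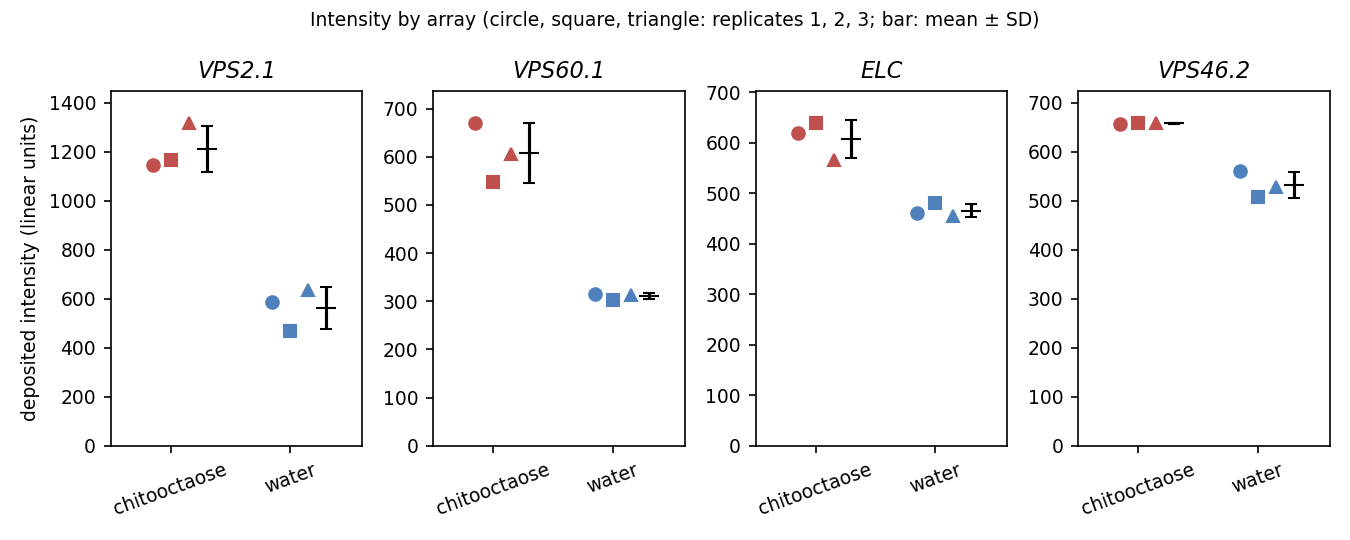
Deposited intensity (linear units, axes from 0) of VPS2.1, VPS60.1, ELC and VPS46.2 in the 3 chitooctaose arrays (red, left) and the 3 water arrays (blue, right), with mean ± SD in black. For each gene the chitooctaose arrays lie above the water arrays, with the widest gaps for VPS2.1 and VPS60.1 and almost equal chitooctaose values, from 657.1 to 658.8, for VPS46.2.

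In order of the log2 change the genes ran VPS2.1, VPS60.1, ELC and VPS46.2. Set against its own water mean, VPS2.1 was higher by 1.04 to 1.24 log2 units in the chitooctaose arrays and VPS60.1 by 0.82 to 1.11, so these neighbours overlapped. ELC was higher by 0.28 to 0.46 and VPS46.2 by 0.31 in each array, which also overlapped. Between VPS60.1 and ELC the ranges did not meet. No test was made of differences between the 4 genes.

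The value that chose the genes was an adjusted p under 0.05 in a limma model fitted to all 22746 probe sets, with Benjamini-Hochberg adjustment over all of them, and a probe set past this threshold is called changed. In that model 964 probe sets rose, 4.24% of those tested, and 183 fell, 0.805%, together 5.04%. Every chitooctaose array was above every water array, as for all 4 genes, for 9.10% of probe sets. The selection values were 0.0016 for VPS60.1, 0.00557 for VPS2.1, 0.0243 for ELC and 0.0281 for VPS46.2, the last being just inside the threshold. Under 14 other settings of the analysis VPS2.1 and VPS60.1 stayed under the threshold each time, while ELC and VPS46.2 did so in 5 of 14 each, and the loss included runs with single arrays of either group left out. Just outside it among the ESCRT lists was AT1G76970, at 0.101, which the gene table gives under its locus code alone, followed by AT1G21380, also without a name there, at 0.276, and by the named gene VPS37-2, at 0.54. AT1G76970 was dimmer than the 4 genes, at 119, 118 and 113 in the chitooctaose arrays, against 70.5, 91.1 and 79.0 in the water arrays, and its log2 change of 0.55 (SE 0.13) was larger than that of ELC. AT1G21380 stood at 734, 760.2 and 808 in the chitooctaose arrays, against 704, 681 and 695 in the water arrays, a log2 change of 0.14 (SE 0.05). For AT1G76970, AT1G21380 and VPS37-2, too, the groups did not overlap. Every chitooctaose array was above every water array for 4 of the 20 other measured ESCRT genes, and for 1145 of all 13355 genes. Among all measured genes, 325 (2.43%) had a log2 change at least as large as that of VPS2.1 and 378 (2.83%) as that of VPS60.1. For ELC it was 1087 genes (8.14%) and for VPS46.2 it was 1408 (10.5%).

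**Figure D2:**
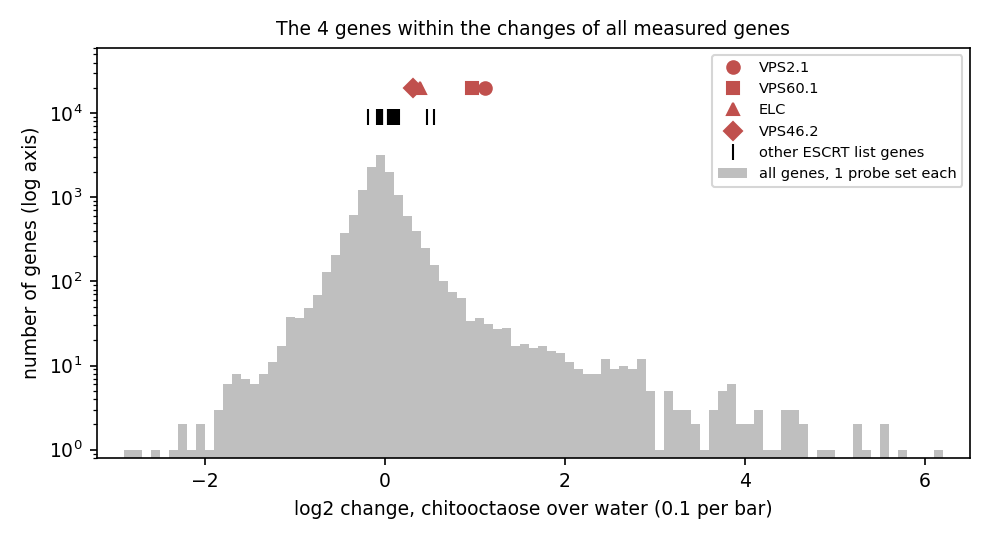
Number of genes (log axis, 1 probe set per gene, 13355 genes) by log2 change of chitooctaose over water in steps of 0.1, with VPS2.1, VPS60.1, ELC and VPS46.2 as red symbols and the 20 other measured genes of the ESCRT lists as black ticks above; the height of symbols and ticks has no meaning. VPS2.1 and VPS60.1 lie in the right tail, ELC and VPS46.2 on the shoulder of the main peak, and the ticks lie between -0.19 and 0.55.

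The other genes of the machinery did not pass the test in either direction. Of 37 further ESCRT entries on the lists, 20 had a probe set of their own, and of these 20 genes none rose and none fell (limma, adjusted p under 0.05). Of all genes taken with 1 probe set each, 3.76% rose and 0.562% fell. At an unadjusted p under 0.05, 2 of the 20, AT1G76970 and AT1G21380, were higher and none was lower, while 13.3% of all genes reached that value in either direction. Both are on the list of ESCRT-0-like and recruiting genes, of which 7 were measured. The 4 selected genes were taken out for having risen at an adjusted p under 0.05, so the count of 0 rises among the 20 is fixed by that choice and is no result. The choice did not use falls, but only 0.562% of all genes fell. A count of 0 falls among 20 genes is near that share and says nothing particular about them. The median log2 change of the 20 genes was 0.04, and that of all genes was -0.05. Whole seedlings were measured, so more cells expressing a gene and more transcript per cell cannot be told apart.

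Within ESCRT-I, VPS37-2, which joins the complex beside ELC, stood at 345 ± 12.7 in chitooctaose and 321 ± 9.24 in water (SD, n = 3 each), a log2 change of 0.10 (95% interval -0.04 to 0.25). Of ESCRT-II, VPS22 had means of 498 ± 32.7 in chitooctaose and 487 ± 6.42 in water. VPS36, the ESCRT-II subunit that binds ubiquitin, stood at 303 ± 36.7 in chitooctaose and 309 ± 19.6 in water. The log2 changes of these ESCRT-II genes were 0.03 and -0.03, and that of VPS22 was -0.0053 after quantile normalization. The other ESCRT-I and ESCRT-II genes on the lists are not analysed here.

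The filament-forming ESCRT-III genes SNF7.1 and SNF7.2, which encode the relatives of the main filament subunit of yeast, showed no call. SNF7.1 stood at 533 ± 101 in chitooctaose and 519 ± 63.0 in water, and SNF7.2 at 738 ± 18.2 in chitooctaose and 773 ± 47.0 in water (SD, n = 3 each). The log2 change of SNF7.1 was 0.03 (95% interval -0.39 to 0.44), or -0.02 after quantile normalization, and that of SNF7.2 was -0.06 (-0.21 to 0.08). VPS20.1, whose yeast counterpart starts the filament, stood at 303 ± 19.6 in chitooctaose and 288 ± 51.3 in water, a log2 change of 0.09 (-0.27 to 0.44). VPS24.1, whose yeast counterpart acts with VPS2 at the end of the filament, stood at 474 ± 28.5 in chitooctaose and 447 ± 114 in water, with a log2 change of 0.12 (-0.38 to 0.62). The lowest water value of VPS24.1, 316.5, was that of replicate 2, the array in which VPS2.1 was lowest too. For VPS24.2 the signal was under the floor on 4 of 6 arrays, at 14.7, 14.2 and 48.1 in chitooctaose, against -4.41, 18.2 and 15.8 in water, so its size of change has no meaning. The intervals of SNF7.1, VPS20.1 and VPS24.1 leave room for a change as large as that of ELC, while those of SNF7.2, VPS37-2, VPS22 and VPS36 end below it.

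**Figure D3:**
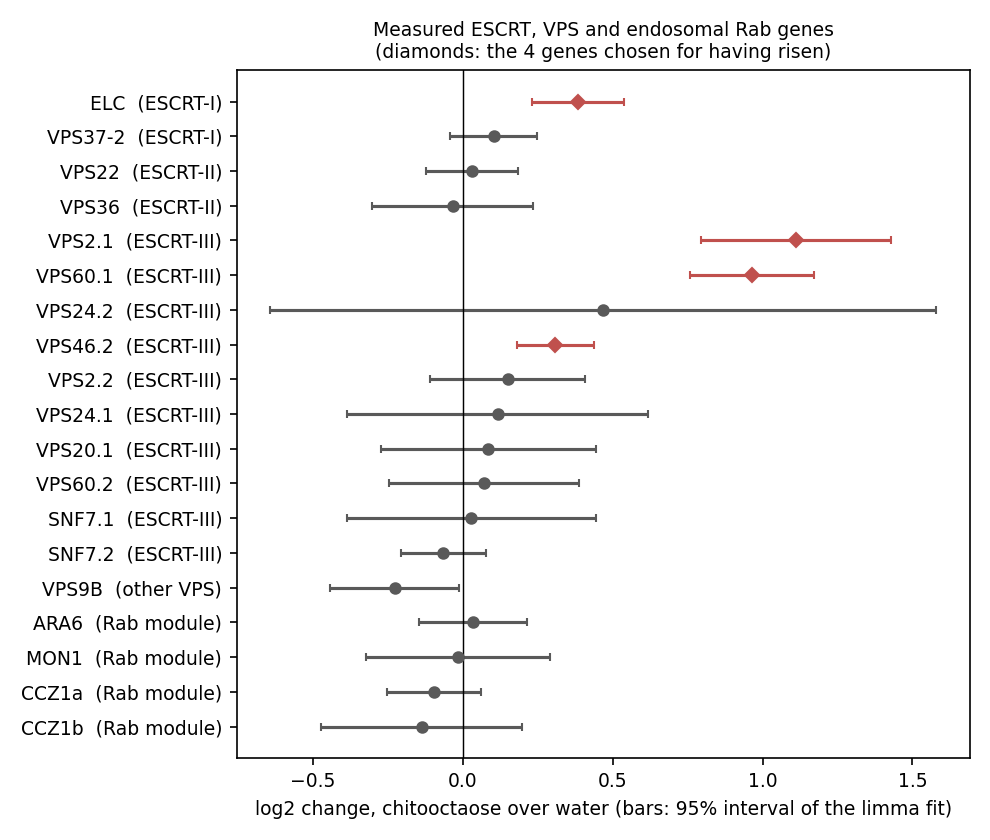
Log2 change of chitooctaose over water (point) with its 95% interval (bar) for ELC, VPS2.1, VPS60.1 and VPS46.2 (red diamonds) and the other measured ESCRT, VPS and endosomal Rab genes that carry a name in the gene table (grey circles), by complex from top to bottom. The intervals of the 4 selected genes lie above 0, which follows from how these genes were chosen and is no result. That of VPS9B, -0.44 to -0.01, lies below 0 before any adjustment, and those of the other genes drawn include 0. The 10 other ESCRT genes given by locus code alone are not drawn. Of these, AT1G76970 (0.22 to 0.87) and AT1G21380 (0.02 to 0.27) have intervals above 0 before any adjustment.

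VPS2.1 and VPS60.1 each have a close relative on the array. VPS2.2 stood at 211, 221 and 208 in the chitooctaose arrays, against 206, 169 and 204 in the water arrays, a log2 change of 0.15 (95% interval -0.11 to 0.41) where VPS2.1 had 1.11. VPS60.2 stood at 367, 378 and 315 in the chitooctaose arrays, against 358, 286 and 368 in the water arrays, a log2 change of 0.07 (-0.24 to 0.39) where VPS60.1 had 0.96. The lowest chitooctaose array of VPS2.2 was above its highest water array by a factor of 1.01, and the groups of VPS60.2 overlapped. The within-array log2 ratio of VPS2.1 over VPS2.2 does not change when all values of an array are multiplied by a common factor. It was higher by 0.86 to 1.12 in the chitooctaose arrays than its water mean, with water arrays between -0.07 and 0.10. The ratio of VPS60.1 over VPS60.2 was higher by 0.64 to 1.06 in the chitooctaose arrays, with water arrays between -0.12 and 0.20. These ratios carry the values that chose VPS2.1 and VPS60.1 and are given without a test. The relative of VPS46.2, VPS46.1, and that of ELC are not analysed here.

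**Figure D4:**
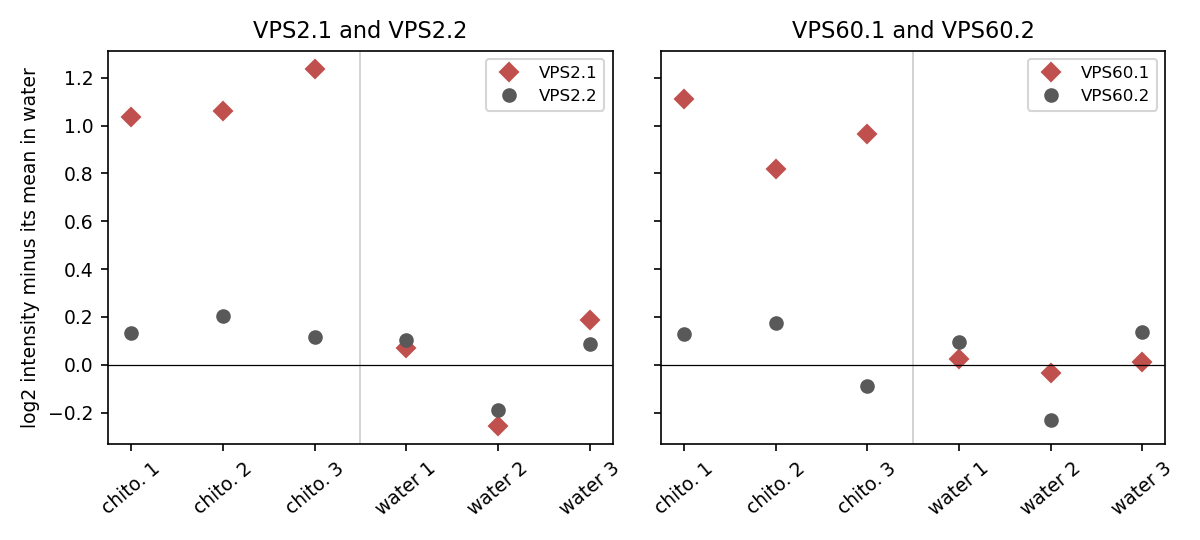
Log2 intensity minus its mean in water for VPS2.1 and VPS2.2 (left panel) and VPS60.1 and VPS60.2 (right panel) in the 3 chitooctaose arrays and the 3 water arrays. VPS2.1 and VPS60.1 (red diamonds) lie at 0.82 to 1.24 in chitooctaose, and VPS2.2 and VPS60.2 (grey circles) at -0.09 to 0.20.

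Among genes whose symbol in the gene table starts with VPS, 10 of 29 were measured, of which 3 are VPS2.1, VPS60.1 and VPS46.2. VPS36 and VPS37-2, which the table gives as synonyms of locus codes, are not among the 10. Of the other 7, all but VPS9B are ESCRT-II or ESCRT-III genes already counted above. None of the 7 rose or fell (limma, adjusted p under 0.05), while 3.76% of all genes rose and 0.562% fell. The count of 0 rises is again fixed by the choice of genes that rose. That of 0 falls is near the share over all genes, so neither is a result. As for 13.3% of all genes, the unadjusted p was under 0.05 for 1 of the 7. This was VPS9B, a relative of the exchange factor VPS9A that activates endosomal Rab5 GTPases, at 244, 231 and 206 in the chitooctaose arrays, against 267, 256 and 273 in the water arrays. Every chitooctaose array was below every water array for VPS9B, as for 10.4% of all probe sets, and its log2 change was -0.23 (SE 0.09, adjusted p = 0.323 by limma). The median log2 change of the 7 genes was 0.09. Retromer, tethering complex and PI3-kinase genes that carry a VPS symbol are not analysed here.

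Other endosomal genes had 33 entries on the lists, of which 9 were measured and none passed the test (limma, adjusted p under 0.05, and none at an unadjusted p under 0.05). Of all genes, 3.76% rose, 0.562% fell and 13.3% had an unadjusted p under 0.05. Counts of 0 among 9 genes are not far from these shares. ARA6, a plant-type Rab5 GTPase of multivesicular bodies, stood at 965 ± 72.2 in chitooctaose and 942 ± 49.6 in water (SD, n = 3 each). MON1, a subunit of the complex that hands endosomes from Rab5 to Rab7, stood at 523 ± 16.9 in chitooctaose and 533 ± 84.3 in water. Its partners CCZ1a and CCZ1b had log2 changes of -0.10 and -0.14. The log2 changes of the 9 genes lay between -0.22 and 0.13.

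The genes next to the 4 on the chromosomes gave a measure that the selection did not use. By gene order in TAIR10.1, 5 of the 8 flanking protein-coding genes were measured. None of these passed the test (limma, adjusted p between 0.603 and 0.976), and none had an unadjusted p under 0.05. As 13.3% of all genes reached that unadjusted value, 0 among 5 genes says little. Beside VPS60.1, AT3G10630 had means of 206 ± 34.0 in chitooctaose and 205 ± 63.2 in water, and NUP1, a nuclear pore gene, 355 ± 3.50 in chitooctaose and 375 ± 17.1 in water (SD, n = 3 each). AT3G12390, which precedes ELC, stood at 3404 ± 85.0 in chitooctaose and 3579 ± 138 in water. AT1G73020 and AT1G73040, on either side of VPS46.2, had log2 changes of -0.19 (SE 0.13) and -0.34 (SE 0.23). AT1G73040 was dim, at 33.1 ± 4.87 in chitooctaose and 42.7 ± 11.2 in water (SD, n = 3 each). Both neighbours of VPS2.1 are not analysed here.

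The genes most like each of the 4 were found by the root mean square difference of log2 profiles over the 6 arrays, each profile taken relative to its water mean, among 8977 genes with a mean of at least 6 on the log2 scale. Closest to VPS2.1 were AT4G31000, AT5G37540 and AT4G20860, at 0.07 to 0.09 log2 units, with log2 changes between 1.07 and 1.11. Closest to VPS60.1 were AT5G44820, AT2G43320 and AT4G26120, at 0.06 to 0.08, with log2 changes of 0.97, 0.95 and 0.96. ELC was matched most closely by AT3G06780, AT1G63880 and PYE, at 0.04 for each, and PYE, also called POPEYE, encodes a transcription factor of the response to iron deficiency. VPS46.2 was matched by AT3G06760, AT1G18900 and AT4G38540, at 0.04 to 0.05. Of these matches, PYE, AT3G06760 and AT1G18900 did not pass the test (limma, adjusted p 0.167, 0.0991 and 0.0821). None of the 12 is on the ESCRT or other endosomal lists, which were matched by locus, and none has a VPS symbol. Names tell no more, since all except PYE are given by locus code. Among the 4 genes themselves, ELC and VPS46.2 were nearest to each other (0.10), then VPS2.1 and VPS60.1 (0.19), while VPS2.1 and VPS46.2 were farthest apart (0.58). All of these profiles share the same 6 arrays, and the measure mostly compares the size of the change.

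Across all probe sets, the 6 array medians lay between 155.7 and 169.2, and log2 intensities correlated at 0.977 to 0.984 within a treatment and at 0.954 to 0.962 across treatments; these coefficients run over probe sets rather than samples. RNA integrity, read as the actin signal at the 3' end over that at the 5' end, was 1.31 ± 0.0845 in chitooctaose and 1.28 ± 0.0548 in water (SD, n = 3 each). Of the shoot markers 3 of 10 were measured, all of them LHCB4 genes of the photosynthetic antenna, with log2 changes between -0.08 and 0.20. Of the root markers 1 of 14 was measured, the root hair expansin EXPA7, at 107 ± 28.9 in chitooctaose and 137 ± 22.4 in water. Pollen markers had 2 of 5 measured, with mean intensities up to 62.0. None of these 6 markers passed the test (limma, adjusted p 0.585 or higher, none at an unadjusted p under 0.05). With 13.3% of all genes at that unadjusted value, 0 among 6 says little.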

How the data were processed

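Biotin-labelled cRNA from 7 µg of total RNA per sample was hybridised to Affymetrix arrays, per the labels' protocols. The authors deposited linear intensities, with a single value for each probe set in each sample. How probes were summarised, corrected for background and scaled is not given in the sources used here. Between 163 and 213 values per array were below 0. Replicates are described as biological, without the source of each. The number of arrays limits the precision.

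Of 22810 probe sets, 64 Affymetrix controls were left out. The platform annotation, updated through RefSeq's gene table (TAIR10.1), gave 13513 of the rest exactly 1 gene (13436 found in the gene table), 503 several and 8730 none. The probe set with the highest mean stood for a gene. Genes without a name in these tables are given by locus code.

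Intensities were floored at 16 (3.81 to 4.91% of an array's values), log2 was taken, and limma 3.58.1 (lmFit, eBayes with trend) in R 4.3.3 compared 3 chitooctaose with 3 water arrays, 2-sided, with Benjamini-Hochberg adjustment. Scripts were tested on simulated data. The 4 genes and the lists were chosen with earlier results of these data known. Named are the 4 genes and the 3 closest profiles of each of the 4. Measured ESCRT, VPS and endosomal Rab genes are named where they carry a name in the gene table. AT1G76970, AT1G21380, the neighbouring genes and the markers were added to these. The rest of the measured ESCRT genes, given by locus code alone, are counted and drawn without their names. Sequences and coordinates are not used here.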

Additional observations from a re-analysis of the deposited data

How the results depend on the processing

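Under 14 alternatives (floors of 1 and 64, quantile normalization, median centring, 2 other variance models, without the dimmest 40% of probe sets, a replicate block, and each array left out) the log2 change stayed between 0.98 and 1.21 for VPS2.1, 0.89 and 1.04 for VPS60.1, 0.33 and 0.44 for ELC, and 0.25 and 0.35 for VPS46.2. It moved by more than the spread between replicates once, for VPS46.2, to 0.25 with quantile normalization. The adjusted p that chose the genes stayed under 0.05 in all 14 for VPS2.1 and VPS60.1, but in 5 of 14 for ELC and 5 of 14 for VPS46.2. ELC would not have been chosen with quantile normalization (0.104), median centring (0.0688), no variance trend (0.0509) or the block (0.0541), nor without chitooctaose replicate 1 (0.117) or 2 (0.0733) or water replicate 1 (0.113), 2 (0.0542) or 3 (0.102). VPS46.2 would not have been chosen with median centring (0.0547), no variance trend (0.0706), robust variances (0.0536) or the block (0.101), nor without chitooctaose replicate 1 (0.122), 2 (0.0939) or 3 (0.105) or water replicate 2 (0.0568) or 3 (0.11). Runs without an array rest on 5 arrays.

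The numbers of rises and falls among the other ESCRT and the other VPS genes were 0 under all 14. As the genes that rose in the main setting had been taken out, 0 rises carry little weight. Since 0.562% of all genes fell in that setting, 0 falls are near that share, so neither is a result. Of 153 log2 changes of the 11 other named ESCRT and VPS genes under these alternatives, 141 kept their direction and none passed the test. Those that turned were VPS22 (-0.0053) and SNF7.1 (-0.0206) with quantile normalization and, with an array left out, VPS22 (-0.0193 to 0.0739), VPS36 (-0.116 to 0.0603), VPS24.1 (-0.12 to 0.25), VPS24.2 (-0.0609 to 0.733), VPS20.1 (-0.0600 to 0.201), SNF7.1 (-0.0891 to 0.187) and VPS60.2 (-0.0444 to 0.152). VPS24.1, VPS20.1 and VPS60.2 turned without water replicate 2 alone. Alternatives for the 12 closest genes were added after seeing the data, and none of their log2 changes turned.

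Over all probe sets (964 rises, 183 falls), 721 to 835 rose and 86 to 176 fell with an array left out, and 754 and 93 with the replicate number as a block. The other settings gave 857 to 1060 rises and 158 to 262 falls, the most rises with robust variances and the most falls with quantile normalization. After subtraction of group means, arrays of the same number correlated at 0.046 for number 1, at 0.031 for number 2 and at -0.099 for number 3, and 1 of 6 arrays was closest to its own number, so the numbers were not taken to pair the arrays. No gene of the 4 had another probe set of its own to compare. Low signal limits VPS24.2, and the neighbouring gene AT1G73040 was dim as well.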
